A study of Mus musculus with 20 samples.

Results

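The G2/M and mitosis genes are a list of 55 genes that act as a cell leaves DNA replication, enters mitosis and divides, from cyclins and mitotic kinases to kinesins, condensin subunits and cytokinesis proteins. Members were found on the array by current or former gene symbol, using probe sets annotated to 1 symbol and the brightest probe set of each gene. Of the 55 genes, 53 had such a probe set, among 12393 genes on the array. Ccnb1, a mitotic cyclin, and Espl1, the protease separase, had none. All 53 passed the filter on low signal that kept 7436 genes for testing, and each member is described here from that 1 probe set unless another is named. For this description they were placed in 9 groups by role.

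The cells were primary mouse embryonic fibroblasts, connective tissue cells grown out of embryos taken at 13.5 days post coitum. The wild type group held 3 embryos with 3, 3 and 4 cultures, and the E2F4 null group held 5 embryos with 2 cultures each. Each of the 20 cultures was hybridised to 1 array, and the cultures of an embryo were averaged, so that the embryo was the replicate. The labels name no strain, sex, litter, passage or agent, and do not say which part of E2f4 was removed or whether wild type embryos were littermates of the null ones. No treatment or allele other than the E2F4 null genotype is given, and the cells were cultured fibroblasts and not sorted by cell cycle phase. In such bulk RNA, fewer cells in G2 or mitosis and less of these transcripts in each cell cannot be told apart.

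Most genes of this class are silent in resting cells and are switched on late in the cell cycle. E2F4 is the E2F factor best known for repression in resting and early G1 cells, where it sits with the pocket proteins p107 and p130 and the MuvB core in the DREAM complex. The MuvB subunit LIN54 contacts a promoter element called the cell cycle genes homology region (CHR), often found near a CCAAT box bound by NF-Y, while E2F sites mark many genes of the G1/S transition. After release of the repressors, MuvB with B-MYB and then FOXM1 activates the G2/M genes, and the proteins made then condense chromosomes, build the spindle, check kinetochore attachment and cut the cell apart.

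Promoter sequences are shown first because these elements define much of the class. RefSeq promoter records (GRCm38.p6, 250 bases before to 50 bases after the annotated start) were found for 43 of the 53 genes, 46 records in all. Each printed window runs from 120 bases before to 30 bases after the start on the strand of the gene, and capitals mark the motif letters found on either strand. The first 3 are the members with the smallest F test p between wild type embryos among those with a CHR and a CCAAT box inside this window, and the other 3 are the same among those with an E2F motif inside it. The choice was by p and not by the size of the difference.
Top2a (chr11:99024160-99024309, minus strand): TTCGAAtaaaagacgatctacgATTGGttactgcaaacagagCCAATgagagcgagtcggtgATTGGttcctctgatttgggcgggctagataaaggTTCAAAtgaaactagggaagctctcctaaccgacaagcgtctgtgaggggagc
Ttk (chr9:83834569-83834718, plus strand): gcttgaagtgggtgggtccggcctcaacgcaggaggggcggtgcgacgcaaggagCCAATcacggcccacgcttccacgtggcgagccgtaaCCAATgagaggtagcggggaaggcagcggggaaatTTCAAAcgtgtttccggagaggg
Cdc20 (chr4:118437314-118437463, minus strand): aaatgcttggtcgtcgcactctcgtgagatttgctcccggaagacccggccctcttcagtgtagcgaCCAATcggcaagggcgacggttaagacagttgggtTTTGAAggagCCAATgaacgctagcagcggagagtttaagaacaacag
Plk4 (chr3:40799831-40799980, plus strand): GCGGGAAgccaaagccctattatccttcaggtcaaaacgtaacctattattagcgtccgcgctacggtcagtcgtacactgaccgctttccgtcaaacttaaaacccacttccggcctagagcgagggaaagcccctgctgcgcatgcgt
Mki67 (chr7:135716350-135716499, minus strand): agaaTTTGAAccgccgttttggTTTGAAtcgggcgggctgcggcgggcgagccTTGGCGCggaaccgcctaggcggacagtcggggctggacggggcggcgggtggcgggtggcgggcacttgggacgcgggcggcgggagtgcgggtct
Ncapd2 (chr6:125191557-125191706, minus strand): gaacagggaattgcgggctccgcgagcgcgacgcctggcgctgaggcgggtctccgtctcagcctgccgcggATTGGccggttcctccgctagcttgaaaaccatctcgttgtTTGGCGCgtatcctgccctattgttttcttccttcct
The CHR was searched as TTTGAA and in the variant form TTCGAA, and the CCAAT box by the letters of its name. The E2F motif was searched as TTCCCGC, in a second form TTGGCGC, in another form TTCGCGC and in the last form TTGCCGC. Both strands were searched in each case, and TTGGCGC can share letters with a CCAAT box read on the opposite strand, ATTGG. Top2a held a CHR at positions -120 and -23 and CCAAT letters at -98, -78 and -58, counting the annotated start as position 1. Cdc20 held its CHR at -18 between CCAAT letters at -53 and -8.

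A CHR was present in 34 of the 46 member promoters, or 73.9%, against 19.2% of all 32851 promoter records of the same length and 13.5% of the 7920 records of genes tested here. The CCAAT letters were also present in 34 of the 46, against 37.4% of all records and 37.8% of those of tested genes. Both stood together in 67.4% of member promoters, against 7.52% and 5.48%. An E2F motif was present in 21.7% of member promoters, against 9.57% of all records and 17.5% of those of tested genes. The members with and without a CHR differed little in the comparison of wild type embryo 2 with the other wild type embryos described below: the median log2 difference was -0.63 over 31 genes with it and -0.59 over 12 genes without it. A match of letters is a description and was not tested as a binding site.

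The arrays carried equal scaling, with a trimmed mean of deposited signal between 500.19 and 500.21. The signal of E2f4 was 214 ± 6.47 (SD, n = 3) in the wild type and 166 ± 17.6 (SD, n = 5) in the null embryos. The null embryos were all lower, from 155 to 196 against 209 to 221 in wild type, but the E2f4 probe set stayed above the level filter and the difference of -0.35 (log2, SE 0.10) had an adjusted p of 0.360. Whether that probe set lies in the removed part of the gene is not given in the sources used here. All 12 fibroblast markers passed the level filter, and their summed signal was 102583 to 104702 in wild type and 93397 to 108600 in null embryos.

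No G2/M or mitosis gene was called between the genotypes. None of the 53 members passed limma's test of E2F4 null against wild type embryos after Benjamini-Hochberg adjustment over all 7436 genes, a comparison in which 0.0134% of genes, 1 gene, was called. The point estimates leaned 1 way: 51 of the 53 members were above 0 in the null embryos, with a median log2 difference of 0.14, where 3661 of all genes were above 0 and 3775 below it. Only Bub3 and Pttg1 had estimates below 0. The lean rested on 1 embryo: without wild type embryo 2 the median was -0.04 and 20 of 53 members were above 0. Log2 values here are log2(signal + 16), which understates changes of dim genes.

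At an unadjusted p under 0.05, 1 member would have been named, Kif22, against 8.77% of all genes. Kif22 is a chromosome-binding kinesin of the spindle, and its signal was 2464, 1832 and 2302 in the wild type embryos and 2231, 2782, 3008, 2556 and 3506 in the null embryos. Null embryos 2, 3, 4 and 5 lay above all wild type embryos and null embryo 1 lay below wild type embryos 1 and 3, so the groups overlapped. The null minus wild type difference was 0.36 (SE 0.15, adjusted p = 0.530), with a 95% interval from 0.02 to 0.71. Its other measured probe sets gave 0.22 and 0.22. In none of the 53 genes did every null embryo lie above every wild type embryo, where 2.97% of all genes showed that order. Adjusted p-values of the members ran from 0.530 to 0.997 and standard errors from 0.07 to 0.39, so that intervals were wide: Top2a at 0.19 had an interval from -0.26 to 0.64, and Nuf2 at 0.30 had one from -0.58 to 1.18. A p above the threshold does not show that the genotypes were equal.

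**Figure D1:**
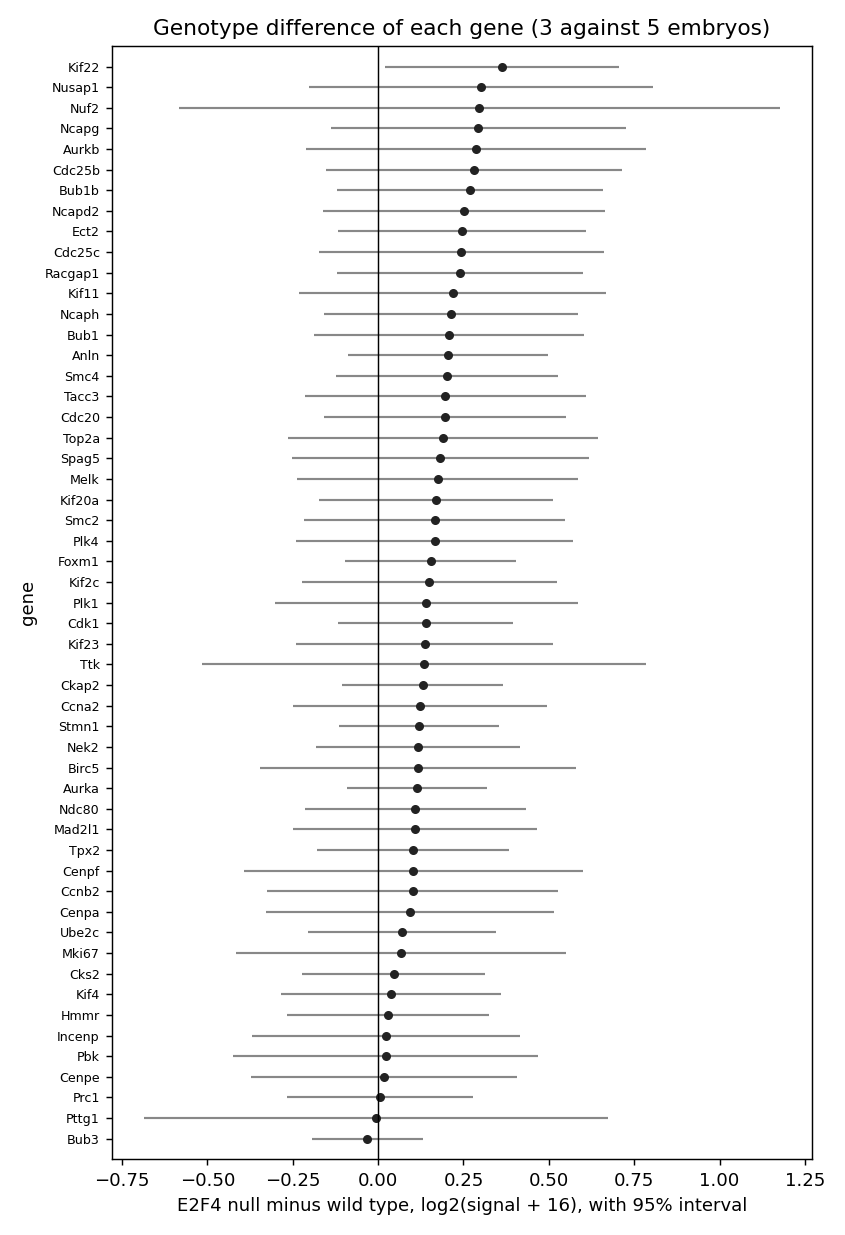
Difference between E2F4 null and wild type embryos for each of the 53 genes on the x axis, in log2(signal + 16), with points for the estimate and lines for the 95% interval (3 against 5 embryos). Only the interval of Kif22, from 0.02 to 0.71, leaves out 0, and that gene had an adjusted p of 0.530.

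Embryos of the same genotype differed from each other in most members. In limma's F test over cultures, 50 of the 53 members differed among the 3 wild type embryos, where 51.3% of all genes did, and 38 differed among the 5 null embryos, where 27.6% of all genes did. Both tests called 37 members. Cultures of 1 embryo shared an embryo, so these p-values measure only the spread between cultures. The median between-embryo SD of a member (pooled within genotype) was 0.27 on the log2 scale, against 0.14 for other genes, while the between-culture SD was 0.097 against 0.118. Nek2, Bub3 and Kif22 were the members not called among wild type embryos, with adjusted p-values of 0.0643, 0.131 and 0.0922.

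The order of embryos was nearly the same from gene to gene. Wild type embryo 2 was the lowest of the 3 wild type embryos for 50 members and the lowest of all 8 embryos for 46, and wild type embryo 3 was the highest wild type embryo for 50. Among null embryos, 1 or 2 was lowest for 51 members and 4 or 5 was highest for 47. The mean log2 level over the 53 genes was 9.96, 9.51 and 10.19 in wild type embryos 1 to 3. It was 9.85, 9.87, 10.12, 10.18 and 10.18 in null embryos 1 to 5, so the wild type range enclosed all the null embryos. Single cultures departed from their embryo by -0.037 to 0.023, against a span of 0.680 between embryos.

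**Figure D2:**
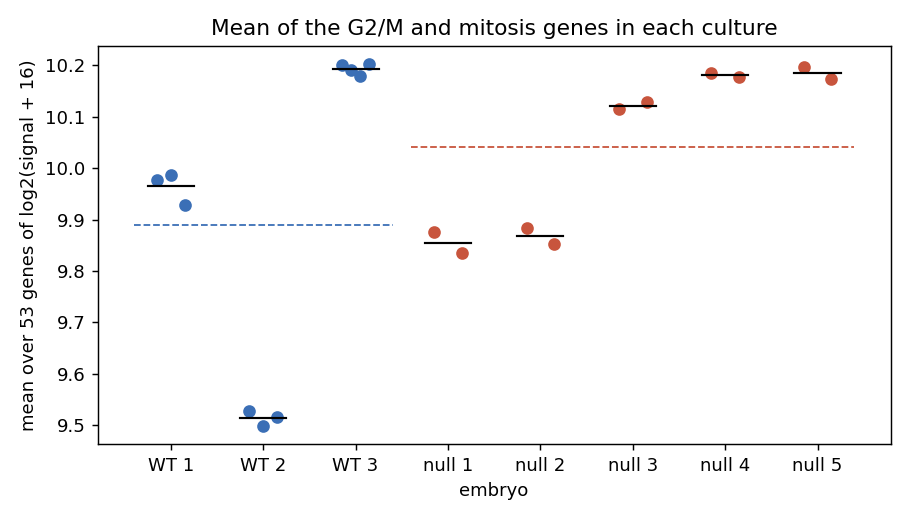
Mean over the 53 genes of log2(signal + 16) on the y axis (not starting at 0) for each of the 20 cultures, grouped by embryo on the x axis, wild type in blue and E2F4 null in red. Black bars are embryo means and dashed lines genotype means over embryos. The 3 cultures of wild type embryo 2 (mean 9.51) sit below all others, and null embryos 1 and 2 (9.85 and 9.87) below null embryos 3 to 5.

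Each embryo was then compared with the mean of the other embryos of its genotype. In wild type embryo 2, 48 members were lower and 0 higher, with a median log2 difference of -0.59 and a range of -1.17 to -0.04, where 25.4% of all genes were lower and their median was -0.01. The 5 members that did not pass were Pttg1, Ckap2, Bub3, Nek2 and Ndc80. In wild type embryo 3, 49 members were higher (19.6% of all genes) and only Pttg1 was lower, with a median of 0.48. In wild type embryo 1, 12 members were higher (9.4% of all genes) and Nuf2 and Ckap2 were lower, with a median of 0.10. Each wild type contrast contains the other wild type embryos, so the counts are not independent of each other. As a ratio of signals, wild type embryo 3 over wild type embryo 2 had a median of 1.68 over the members and 1.01 over all genes, and 39 of the 53, or 73.6%, passed a ratio of 1.5 against 7.75% of all genes.

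Medians in the null embryos were smaller. In null embryo 1, 27 members were lower (8.86% of all genes) and Pttg1 was higher, with a median of -0.22. In null embryo 2, 28 were lower (10.9% of all genes) and 0 higher, with a median of -0.20. In null embryo 3, only Ttk, Nuf2, Nusap1 and Pttg1 were higher (1.67% of all genes) and 0 lower. In null embryo 4, 14 were higher (4.14% of all genes), and in null embryo 5, 15 were higher (4.81% of all genes), with medians of 0.18 in both and Pttg1 the only member lower in either.

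These null embryo counts rest on both cultures of the embryo. Without the first or the second culture of null embryo 2 they fell to 13 and 12, and without the second culture of null embryo 1 to 12. For null embryo 3 they fell to 1 without either culture, for null embryo 4 to 3 and 5 without the first and the second, and for null embryo 5 to 3 without either. The remaining culture was then assumed to vary like those of other embryos. Centring each array on its median took the count in null embryo 5 from 15 to 7.

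Some markers of other cell types moved with the same embryos. All 5 endothelial and both measured erythroid markers were below the level filter. Of the 5 genes listed as skeletal muscle markers, only Acta1, Des and Tnnt2 passed the filter. The list's summed signal was 533 to 4285 in wild type and 434 to 3561 in null embryos. The highest was wild type embryo 2, and the list's mean had r = -0.93 with the member mean over 8 embryos. Acta1 read 608, 3869.5 and 369.7 in the wild type embryos and 1149, 3143, 270.3, 235 and 211 in the null embryos, while Myod1 and Myog, which define the lineage, were below the filter, at 4.07 to 30.3 and 3.97 to 33.2. No marker of any list was listed at 0. Macrophage and leukocyte markers passed for 10 of 11 genes, with sums of 1965 to 3203 in wild type and 1652 to 5158 in null embryos. Their mean had r = -0.08 with the member mean, but single embryos stood apart. In wild type embryo 2, whose sum was the wild type maximum, 9 of the 10 were higher (1691 of all 7436 genes), with a median of 0.71. In null embryo 1, all 10 were lower (8.86% of all genes), and in null embryo 4, 7 were higher (4.14% of all genes). Epithelial markers passed for 2 of 5 genes, Krt18 and Krt19, with sums of 313 to 554 and 400.0 to 737. Their r was -0.93 (Spearman's rho -0.71), and Epcam and Cdh1 were below the filter. Neural markers passed for 3 of 5 genes, with sums of 948 to 1069 and 982 to 1514 and r = -0.51. The fibroblast markers were mixed in wild type embryo 2 against the other wild type embryos, with 3 of 12 higher, 5 lower and a median of -0.04. Named after their values were seen, Pdgfra read 852, 191 and 1199.5 in the wild type embryos and 197, 339, 908, 1109.6 and 1368 in the null embryos, in an order close to that of the members, while Vim read 20562, 26401 and 23947 in the wild type embryos and 25541, 24937, 21607, 24224 and 22030.5 in the null embryos, with embryo 2 the highest of the wild type embryos. The mean of the fibroblast list had r = 0.86 with the member mean. Without wild type embryo 2 and null embryo 1 that r was 0.64, and Spearman's rho over 8 embryos was 0.69. The r and rho values of these lists use only markers that passed the filter, while the sums hold every measured marker. The part of these cell types in the embryo differences was not tested. The ratio of 3' to 5' control probe signal, a measure of RNA integrity, was -0.44 to -0.42 (log2) for Gapdh in wild type embryos. In null embryos it was -0.50 to -0.46, so the genotypes did not overlap. For Actb it spanned 0.15 to 0.26 over the embryos. Wild type embryo 2 had -0.42 for Gapdh, the top of the range, and 0.21 for Actb. The part of RNA integrity in the genotype comparison was not tested.

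**Figure D3:**
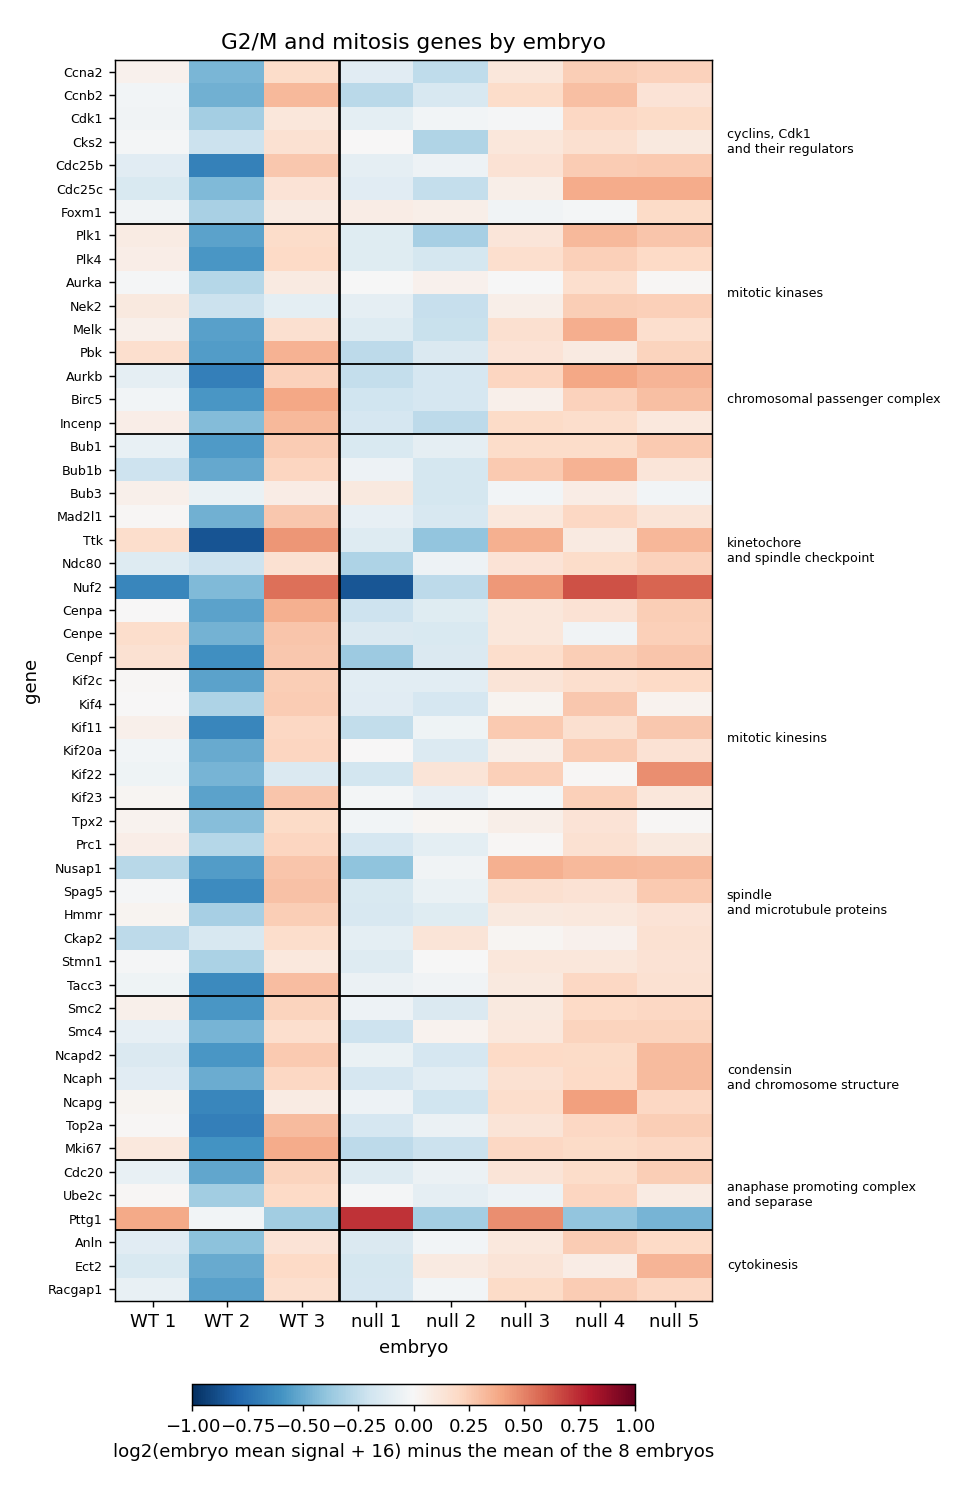
Log2(embryo mean signal + 16) of each of the 53 genes (rows, grouped by role) in each of the 8 embryos (columns) as the difference from the gene's mean over the 8 embryos, blue below and red above it. The column of wild type embryo 2 is blue in nearly every row, the columns of null embryos 1 and 2 are mostly pale blue, and Pttg1, Bub3, Ckap2 and Kif22 are rows that depart from the rest.

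Cyclins, CDK1 and their regulators open mitosis: Cdk1 is the kinase, Ccna2 and Ccnb2 its partners, Cks2 its adaptor, Cdc25b and Cdc25c its activating phosphatases and Foxm1 the transcription factor of the programme. All 7 measured members were called among wild type embryos (51.3% of all genes) and 5 among null embryos (27.6% of all genes). Between genotypes 0 of 7 passed (median difference 0.14). Ccna2 had a signal of 1972, 1385 and 2171 in the wild type embryos and 1763, 1598, 2069.7, 2269 and 2245 in the null embryos. For Ccnb2 the values were 1279, 929.9 and 1638 in the wild type embryos and 1079, 1167, 1483, 1614 and 1434 in the null embryos. Both were lowest in wild type embryo 2, at -0.57 and -0.63 on the log2 scale against the other wild type embryos, and the null values lay inside the wild type range or just above it. The phosphatase gene Cdc25b read 249, 164 and 330.2 in the wild type embryos and 254, 262, 301, 326 and 328 in the null embryos, the lowest again being wild type embryo 2. Its genotype difference of 0.28 (SE 0.19, adjusted p = 0.711) came with overlapping groups. Foxm1 gave 244, 197 and 269 in the wild type embryos and 266, 263, 245, 247 and 289 in the null embryos. It was 0.29 above the other wild type embryos in embryo 3, and its null embryos were not called apart (adjusted p = 0.781). The other measured probe sets of Foxm1 gave larger differences in wild type embryo 2, -1.02 and -0.84, than the brightest one at -0.38. Cdk1, Cks2 and Cdc25c had wild type highest to lowest ratios of 1.38, 1.30 and 1.58.

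Of the 6 mitotic kinases, 5 were called among wild type embryos (51.3% of all genes) and 5 among null embryos (27.6% of all genes). Between genotypes 0 passed (median 0.13). Plk4, which starts centriole duplication, had a signal of 1121, 709 and 1231 in the wild type embryos and 978, 945, 1204, 1265 and 1229 in the null embryos. Pbk, a mitotic kinase also called TOPK, read 1297, 778 and 1472 in the wild type embryos and 959, 1040.4, 1269, 1226 and 1345 in the null embryos. In both, wild type embryo 2 was lowest, at -0.72 (SE 0.05, adjusted p = 2.86e-10) for Plk4 and -0.81 (SE 0.06, adjusted p = 8.71e-10) for Pbk, and null embryos 1 and 2 were the lowest null embryos. Melk, a kinase of dividing cells, had values of 581, 379 and 629 in the wild type embryos and 509.9, 477, 628, 725 and 631 in the null embryos, with null embryos 4 and 5 above every wild type embryo and the rest within their range. Aurka, the centrosomal Aurora kinase, gave 1104, 911 and 1186 in the wild type embryos and 1111, 1149, 1113, 1259 and 1125 in the null embryos. Its embryos were close together apart from wild type embryo 2, its null embryos did not pass the F test (adjusted p = 0.375), and its genotype difference was 0.11 (SE 0.09, adjusted p = 0.747). Plk1, which drives entry into and passage through mitosis, was called in both genotypes, and Nek2, a centrosome kinase, in null embryos alone (adjusted p = 0.0329), a difference between genotypes that was not tested.

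The chromosomal passenger complex corrects faulty kinetochore attachments, with Aurkb as its kinase, Birc5 (survivin) as its targeting subunit and Incenp as its scaffold. All 3 were called among wild type embryos (51.3% of all genes) and among null embryos (27.6% of all genes). Aurkb had a signal of 451, 293 and 568 in the wild type embryos and 405, 426, 561, 632 and 613 in the null embryos. The values of Birc5 were 2237, 1514 and 2984 in the wild type embryos and 1983, 2029.6, 2366, 2671 and 2809 in the null embryos, and those of Incenp 2102, 1481 and 2527 in the wild type embryos and 1792, 1669.5, 2297, 2273 and 2167 in the null embryos. In each, wild type embryo 2 was the lowest of all 8 embryos and null embryos 1 and 2 were the lowest null embryos. Against the other wild type embryos, embryo 2 differed by -0.75, -0.76 and -0.63 (log2). The genotype differences were 0.29 (SE 0.22, adjusted p = 0.742) for Aurkb, 0.12 for Birc5 and 0.02 for Incenp, all within overlapping groups. A dimmer probe set of Incenp gave -0.12 between genotypes, the opposite sign, and -0.66 in wild type embryo 2, the same sign.

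The 10 kinetochore and spindle checkpoint genes hold the attachment site together (Cenpa, Cenpe, Cenpf, Ndc80, Nuf2) and delay anaphase until all chromosomes are attached (Bub1, Bub1b, Bub3, Mad2l1, Ttk). Of them, 9 were called among wild type (51.3% of all genes) and 7 among null embryos (27.6% of all genes). Between genotypes 0 were called (median 0.11). Ttk, the kinase that starts the checkpoint, read 538, 254 and 651 in the wild type embryos and 435, 357, 611, 508 and 601 in the null embryos. Wild type embryo 2 was the lowest of all embryos, at -1.17 (SE 0.07, adjusted p = 6.44e-11) against the other wild type embryos the largest such difference among the members, and null embryo 2 was the lowest null embryo. Mad2l1, the inhibitor handed to CDC20, had a signal of 2141, 1520.3 and 2573 in the wild type embryos and 2006, 1903, 2294, 2462 and 2329 in the null embryos. Bub1, a checkpoint scaffold kinase, read 959, 677 and 1207 in the wild type embryos and 906, 947, 1152, 1149.9 and 1213 in the null embryos, and its relative Bub1b 533, 428 and 718 in the wild type embryos and 596, 545, 743, 791 and 672 in the null embryos. In all 3 the null values lay inside or above the wild type range, the genotype differences being 0.11, 0.21 and 0.27.

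Nuf2, a subunit of the NDC80 complex, had the largest between-embryo SD of the members, 0.65 (log2). Its signal was 428, 498 and 1011 in the wild type embryos and 371, 566, 929.9, 1073 and 1033 in the null embryos. Wild type embryo 3 and null embryos 3 to 5 were high, and wild type embryos 1 and 2 and null embryos 1 and 2 were low. Among the 3 wild type embryos it was lowest in embryo 1, unlike most members, and null embryo 1 was the lowest of all 8. Its genotype difference of 0.30 (SE 0.39, adjusted p = 0.861) had the largest standard error in the list. Ndc80, its partner, had values of 300.3, 283 and 369 in the wild type embryos and 263, 317, 364, 377 and 389.8 in the null embryos, a narrower spread with the same high embryos. Bub3, a WD-repeat protein of the checkpoint, gave 3642, 3359 and 3698 in the wild type embryos and 3764, 3115, 3438, 3694 and 3437 in the null embryos, and did not pass among wild type (adjusted p = 0.131) or null embryos (adjusted p = 0.0740).

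**Figure D4:**
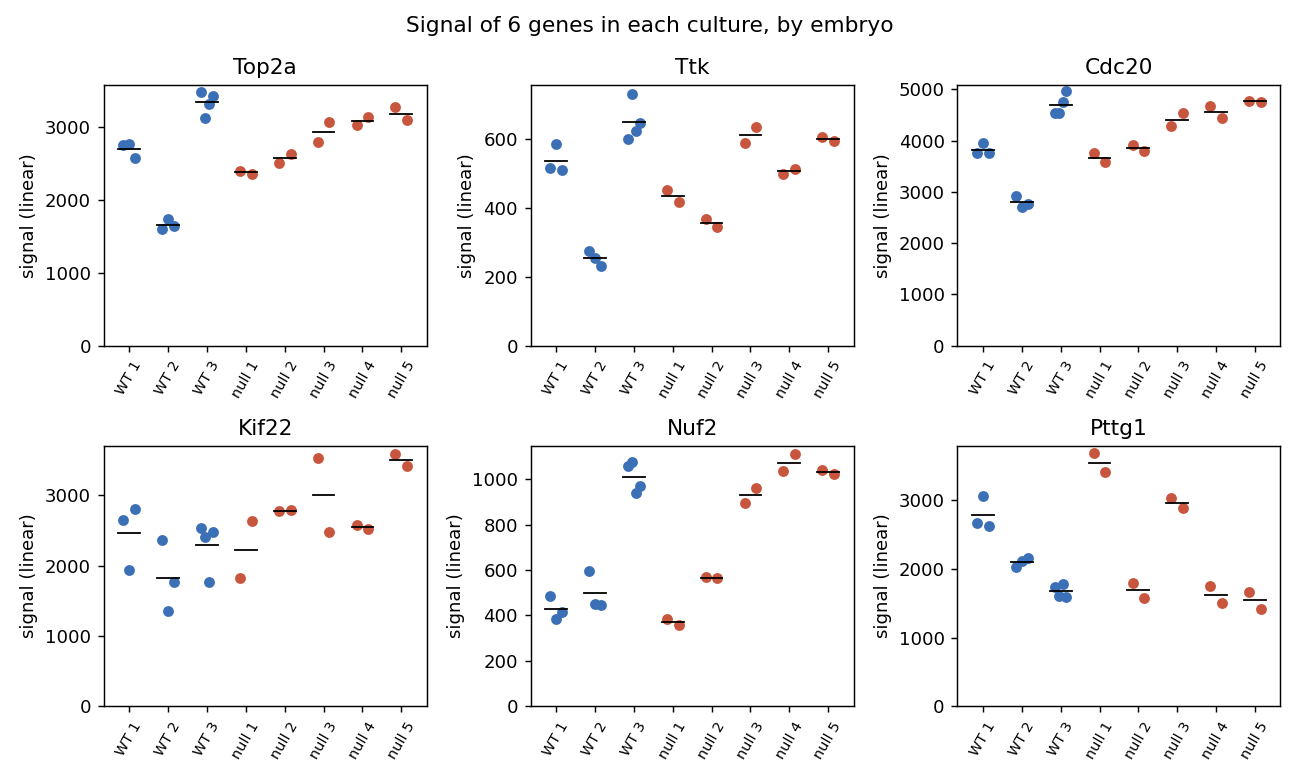
Signal on a linear scale from 0 (y axis) of Top2a, Ttk, Cdc20, Kif22, Nuf2 and Pttg1 in each of the 20 cultures, by embryo (x axis), wild type in blue and E2F4 null in red, with black bars for embryo means. Cultures of an embryo lie close together in Top2a, Ttk and Cdc20, those of Kif22 are spread, and Pttg1 is high in wild type embryo 1 and null embryos 1 and 3.

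Mitotic kinesins move and depolymerise spindle microtubules and carry chromosomes and midzone proteins. Of the 6, 5 were called among wild type (51.3% of all genes) and 3 among null embryos (27.6% of all genes). Kif2c, a microtubule depolymerase at centromeres, had a signal of 753, 511 and 889.5 in the wild type embryos and 694, 694, 821, 841 and 862 in the null embryos. Kif20a, which brings the passenger complex to the spindle midzone, read 948, 679 and 1123 in the wild type embryos and 968, 878, 1011, 1155 and 1073 in the null embryos. Both were lowest in wild type embryo 2, at -0.66 and -0.59 (log2) against the other wild type embryos, and the null embryos lay within the wild type range except for null embryo 4 in Kif20a. For Kif22 the cultures of an embryo lay far apart, such as 1827 and 2635 in null embryo 1 and 3538 and 2479 in null embryo 3. Its dimmer probe sets gave -0.97 and -0.93 in wild type embryo 2, against -0.40 for the brightest. Kif4, Kif11 and Kif23 were called among wild type embryos with highest to lowest ratios of 1.51, 1.87 and 1.78.

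The 8 spindle and microtubule proteins bundle, nucleate or destabilise microtubules. All 8 were called among wild type embryos (51.3% of all genes) and 4 among null embryos (27.6% of all genes). Between genotypes 0 passed (median 0.13). Nusap1, which bundles microtubules around chromosomes, read 519.9, 425 and 771 in the wild type embryos and 475, 618, 813, 798 and 792 in the null embryos. Tacc3, a stabiliser of spindle fibres, had a signal of 545, 355 and 700.2 in the wild type embryos and 539.6, 548, 600.0, 652 and 625 in the null embryos. For Nusap1, wild type embryos 1 and 2 and null embryo 1 were low and the other 5 embryos higher, and for Tacc3 the null embryos did not pass the F test (adjusted p = 0.131) while wild type embryo 2 was at -0.77 (SE 0.07, adjusted p = 1.21e-08) against the other wild type embryos. A dimmer Tacc3 probe set gave -0.002 there. Ckap2, a cytoskeleton-associated protein, gave 889, 955 and 1210.1 in the wild type embryos and 999.7, 1167, 1083, 1099 and 1191 in the null embryos, lowest in wild type embryo 1 and next in embryo 2. Tpx2, an activator of Aurora A, was the only 1 of the 8 with a measured probe set of opposite sign between genotypes (0.10 and -0.09).

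Condensin compacts chromosomes through Smc2, Smc4, Ncapd2, Ncaph and Ncapg, Top2a untangles them and Mki67 coats their surface and marks proliferating cells. All 7 were called among wild type (51.3% of all genes) and among null embryos (27.6% of all genes). Between genotypes 0 were called (median 0.20). Top2a had a signal of 2694, 1659 and 3334 in the wild type embryos and 2374, 2566, 2926, 3080.1 and 3181 in the null embryos, and Mki67 of 2155, 1315 and 2602 in the wild type embryos and 1666, 1724, 2314, 2289.8 and 2311 in the null embryos. In Top2a every embryo was well apart from wild type embryo 2, whose cultures read 1602, 1729 and 1645, and its contrast of -0.85 (SE 0.05, adjusted p = 1.34e-11) had the smallest adjusted p of the members. Smc2 read 1864, 1201 and 2101 in the wild type embryos and 1740.3, 1631, 1935, 2077 and 2078 in the null embryos, and Smc4 3963, 3036 and 4701 in the wild type embryos and 3633, 4303, 4519.5, 4886 and 4882 in the null embryos. Ncapg had values of 465, 284 and 483 in the wild type embryos and 439.5, 395, 517, 612 and 528 in the null embryos. These 3 condensin genes had their lowest value in wild type embryo 2 as well, while null embryo 1 was lowest of the null embryos for Smc4 and null embryo 2 for Smc2 and Ncapg. The genotype differences of Smc4 and Ncapg, 0.20 and 0.29, came with overlapping groups.

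Cdc20, the activator of the anaphase promoting complex, its ubiquitin-conjugating enzyme gene Ube2c and its substrate securin, Pttg1, make up the next group together with the unmeasured Espl1. Cdc20 read 3822, 2800.4 and 4705 in the wild type embryos and 3671, 3859, 4409.6, 4562 and 4766 in the null embryos, and Ube2c 2553, 1982 and 2901 in the wild type embryos and 2492, 2377, 2439, 2941 and 2680.2 in the null embryos. Wild type embryo 2 was lowest of all embryos in both, with contrasts of -0.60 and -0.45, and the genotype differences were 0.20 and 0.07. Without wild type embryo 2 those 2 differences were -0.002 and -0.08. Pttg1 had a signal of 2786, 2105 and 1683 in the wild type embryos and 3545, 1687, 2958, 1627 and 1545 in the null embryos. Wild type embryo 1 and null embryos 1 and 3 were high, and the order of embryos was unlike that of the other members. Against the other embryos of its genotype it was 0.91 (SE 0.08, adjusted p = 3.73e-08) in null embryo 1 and 0.59 (SE 0.08, adjusted p = 4.19e-05) in null embryo 3. Its second measured probe set read 574, 628 and 469 in the wild type embryos and 1024, 569, 818, 545 and 497 in the null embryos, again highest in null embryos 1 and 3. That probe set gave 0.26 in wild type embryo 2 and 0.26 between genotypes, where the brightest gave -0.04 and -0.01.

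The 3 cytokinesis genes were called among wild type embryos (51.3% of all genes), and Anln and Racgap1 among null embryos (27.6% of all genes). Anln, an actin-binding scaffold of the cleavage furrow, had a signal of 2657, 2167 and 3165 in the wild type embryos and 2603, 2829, 3095, 3432 and 3298 in the null embryos. Ect2, the exchange factor for RhoA, read 796, 622 and 1022 in the wild type embryos and 785, 947, 973, 933 and 1129 in the null embryos, and Racgap1, its midzone partner, 968, 697 and 1149 in the wild type embryos and 906, 1004, 1167, 1219.8 and 1180.1 in the null embryos. In each, wild type embryo 2 was again the lowest, and wild type embryo 3 lay among the null values. This group had the highest median genotype difference of the 9 groups, 0.24, with 0.21 (SE 0.13, adjusted p = 0.697) for Anln, and no member passed. Group medians in wild type embryo 2 ran from -0.75 in the passenger complex to -0.44 in the cyclins, and in wild type embryo 3 from 0.36 in the group of Cdc20 to 0.62 in the passenger complex. None of these group medians was tested against another.

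Across the 8 embryos, each taken as its deviation from its genotype mean, the members moved together. The Pearson r of a member with the mean of the other members had a median of 0.96 and exceeded 0.8 for 46 of 53 genes, or 86.8%, where the median of the 7383 other genes with the member mean was 0.04 and 15.8% exceeded 0.8. Spearman's rho had a median of 0.90. Left without wild type embryo 2 and null embryo 1, the embryos farthest from the median, the members' median r was 0.94 and 81.1% exceeded 0.8, against 14.5% of other genes. The points share the embryo, its cultures and the common scaling of the arrays, and no p was computed. Over the 20 deviations of cultures from their embryo the median r was 0.15, against 0.04 for other genes.

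Hmmr, a hyaluronan receptor also found on spindles, was most like the rest (r = 0.996), followed by Mki67 (0.994), Bub1 (0.993), Kif2c (0.992) and Cdc20 (0.991). The least alike were Pttg1 (r = -0.35), Bub3 (0.46), Ckap2 (0.52), Kif22 (0.67) and Nek2 (0.67). For Hmmr the signals were 918, 714 and 1074 in the wild type embryos and 806, 826, 966, 969 and 991 in the null embryos, in the same order of embryos as the member mean. For Nek2 they were 218, 173 and 189 in the wild type embryos and 190.2, 171, 212, 244 and 243 in the null embryos, where wild type embryo 3 was not high. Without the farthest 2 embryos, r was 0.84 for Bub3, 0.35 for Ckap2, 0.16 for Kif22, 0.57 for Nek2 and -0.16 for Pttg1. The means of 8 of the 9 groups followed the member mean at r of 0.97 or more, and the group of Cdc20, Ube2c and Pttg1 at 0.51. The member mean here held each group's own genes, so these r values compare a part with the whole.

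Genes beyond the list were examined in 4 further cell cycle lists. Their counts stand beside 51.3% of all genes called among wild type embryos and 27.6% among null embryos. Of 76 other G2/M and mitosis genes, 47 were tested: 0 were called between genotypes, 40 were above 0 (median 0.13), 39 were called among wild type embryos and 20 among null embryos. The smallest p between genotypes belonged to Zw10, a kinetochore protein, at 0.27 (SE 0.06, adjusted p = 0.304), and Cks1b, a CDK adaptor, at 0.22 (SE 0.06, adjusted p = 0.358). Neither passed. Shcbp1, a midbody protein, and Trip13, an ATPase of the checkpoint, had the smallest F test p among wild type embryos, with differences of -0.87 and -0.85 in wild type embryo 2. Larger differences there were found in the same list, such as -1.24 for Ncapg2, named after its values were seen. In wild type embryo 2, 34 of the 47 were lower (25.4% of all genes) and 4 were higher (1691 of all 7436 genes). The 4 higher were Plk2 (0.36), Zwint (0.34), Gtse1 (0.32) and Psrc1 (0.28). Their r with the member mean was -0.83, -0.84, -0.54 and -0.66. The signals of Shcbp1 and Trip13 ran from 632 and 750 in that embryo to 1356 and 1537 in wild type embryo 3.

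G1/S and DNA replication genes were also mostly lower in wild type embryo 2. Of 50 tested, 49 were called among wild type embryos (51.3% of all genes), 33 among null embryos (27.6% of all genes) and 0 between genotypes. Their genotype estimates also leaned upward, with 37 above 0 (3661 of all 7436 genes) and a median of 0.10. In wild type embryo 2, 48 were lower (25.4% of all genes), with a median of -0.60. Tk1, thymidine kinase, read 1060.3, 606 and 1426 in the wild type embryos and 811, 825, 982, 974 and 1072 in the null embryos, and Mcm6, a subunit of the replicative helicase, 2785, 1617 and 3227 in the wild type embryos and 2388, 2798, 2887, 3043 and 2938 in the null embryos. In both, wild type embryo 2 was lowest, for Mcm6 at -0.89 (adjusted p = 4.31e-11) against the other wild type embryos. Dbf4 (0.30) and Pold2 (0.32) had the smallest p between genotypes and did not pass.

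Of 14 tested E2F, pocket protein and MuvB genes, 10 were called among wild type embryos (51.3% of all genes) and 6 among null embryos (27.6% of all genes). Between genotypes 0 were called, and 5 were above 0 (median -0.03). E2f4 and Lin9 (0.24), a MuvB subunit, had the smallest p between genotypes. In wild type embryo 2, 7 of the 14 were lower (25.4% of all genes) and 3 were higher (1691 of all 7436 genes). The 3 higher were E2f3 (0.53), Rb1 (0.39) and E2f6 (0.21). Rbl1, which encodes p107, read 441, 274 and 498 in the wild type embryos and 285, 341, 378, 388 and 416 in the null embryos, and Tfdp1, the E2F partner DP1, 1973, 1622 and 2196 in the wild type embryos and 1791, 1681, 2007, 2065 and 2127 in the null embryos, with wild type embryo 2 lowest at -0.74 and -0.36.

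Some CDK inhibitors ran the other way. The list of CDK inhibitors and D cyclins also held the kinases Cdk2 and Cdk4. Of its 12 tested genes, 8 were called among wild type embryos (51.3% of all genes) and 8 among null embryos (27.6% of all genes). Between genotypes 0 were called (median -0.01). In wild type embryo 2, 4 of the 12 were higher (1691 of all 7436 genes) and 3 lower (25.4% of all genes), with a median of 0.04. The 3 lower were the kinases Cdk2 (-0.35) and Cdk4 (-0.25) and the inhibitor Cdkn2c. Cdkn1a, which encodes p21 and arrests the cycle, had a signal of 2473, 4514 and 2074 in the wild type embryos and 3496, 3616, 2305, 1703 and 1899 in the null embryos. Wild type embryo 2 was highest and null embryos 1 and 2 next, and the log2 difference of wild type embryo 2 was 0.99 (adjusted p = 3.44e-11). Cdkn1c, encoding p57, read 209, 442 and 158 in the wild type embryos and 595, 461, 253, 188 and 243 in the null embryos, where null embryos 1 and 2 were highest and wild type embryo 2 next. Over embryo deviations r with the member mean was -0.95 for Cdkn1a and -0.93 for Cdkn1c. Cdkn2c, another CDK inhibitor named after its values were seen, went with the members, at -0.52 in wild type embryo 2 and r = 0.93. Cdkn1b (-0.25), encoding p27, and Cdkn2d (0.11), encoding p19, had the smallest p between genotypes, and neither passed there or among wild type embryos (adjusted p = 0.627 and 0.478).

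**Figure D5:**
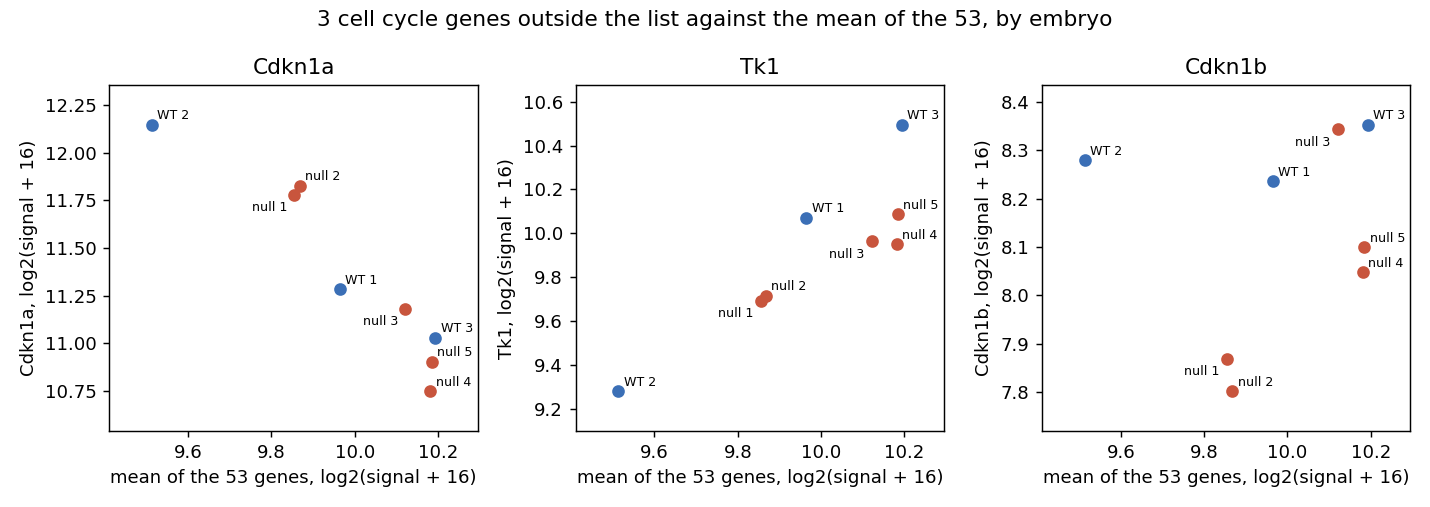
Level of Cdkn1a, Tk1 and Cdkn1b (y axes, log2(signal + 16)) against the mean level of the 53 genes (x axes, same scale; no axis starts at 0), 1 point per embryo, wild type in blue and E2F4 null in red. Cdkn1a falls and Tk1 rises along the x axis, with wild type embryo 2 at the left end of both (member mean 9.51), and Cdkn1b follows no such order.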

How the data were processed

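RNA of 20 fibroblast cultures was measured on 1-colour Affymetrix arrays. The authors deposited 1 linear signal intensity per probe set and array. Per the submitters' processing notes these came from MAS5, whose version and settings the sources used here do not give. Of 22690 probe sets, 64 were controls, 20380 others had 1 gene symbol and 691 had several, and 20351 of the 20380 were updated through the RefSeq gene table of GRCm38.p6. The arrays were not rescaled. Values became log2(signal + 16), 16 being near the 20th percentile of all values (15.72), the brightest probe set stood for its gene, and the 40% of genes with the lowest mean signal were left out.

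The genotype comparison used limma 3.58.1 under R 4.3.3 (lmFit, eBayes with trend, two-sided) on the means of 3 and 5 embryos. Embryos were compared within a genotype by F test and by contrast against the other embryos, over all 20 cultures with 1 coefficient per embryo. A gene was called at a Benjamini-Hochberg adjusted p under 0.05 over all 7436 genes. Of the numbers in a sample title, the first was taken to name the embryo and the last the culture. The number of arrays and embryos limits the precision. The members and gene lists were chosen with earlier results of these data known.

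Named with every embryo's value were, in each group, the 2 members with the smallest p between genotypes and the 2 with the smallest p between wild type embryos, and groups of 3 in full. Also named were the 5 members most and least like the mean of the others, probe sets that disagreed in sign, E2f4, and 2 plus 2 genes of each further cell cycle list by the same p-values. Other members serve as examples picked with their values known.

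Both fits were also tested on simulated data of 7436 genes. Between genotypes, 38 of 67 changes of 0.5 (log2), 62 of 67 of 1 and 65 of 66 of 2 were recovered. Between wild type embryos, 52 of 67, 67 of 67 and 66 of 66 were. Of 7236 unchanged genes, 7 were called between genotypes and 8 between wild type embryos. Genes were drawn independently there, unlike the members on these arrays. The changed genes were drawn from all tested genes, and members had a larger between-embryo SD (median 0.27 against 0.14 for other genes). The share recovered between genotypes was therefore not measured for the members. Alternatives covered the pseudocount, level filter, normalization, probe set choice, number of cultures, blocks and leaving out each embryo or culture.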

Additional observations from a re-analysis of the deposited data

How the results depend on the processing

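Of 836 values recomputed under alternatives, 804 were rated the same. Counts were rated so if equal or within 1.5 times, and differences of single genes if they kept their sign. The median difference had to keep its sign and move by less than 0.24 (log2), the pooled SD of the member mean between embryos. No member was called between genotypes under any alternative run, embryo as a random block over cultures included, which called 79 genes in all against 1. The count of genes called between genotypes was 0 with every probe set, with cultures 1 and 2 only and with embryo number as a replicate block, and ran from 0 to 11 when 1 embryo was left out. With every probe set, 5810 features were called between wild type embryos against 3816 genes, more features being tested. Median centring gave 7 members higher in null embryo 5 against 15. With 1 embryo left out, the members above 0 ran from 20 to 53 and their median difference from -0.043 to 0.32, the lowest both without wild type embryo 2. Over the same alternatives the difference ran from -0.043 to 0.31 in Melk, -0.14 to 0.35 in Birc5, -0.011 to 0.40 in Bub1, -0.027 to 0.33 in Kif20a, -0.0023 to 0.37 in Cdc20 and -0.081 to 0.19 in Ube2c. With 1 culture left out, members lower ran from 12 to 26 in null embryo 1 and 12 to 29 in null embryo 2, and members higher from 1 to 4 in null embryo 3, 3 to 16 in null embryo 4 and 3 to 15 in null embryo 5.

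With embryo number as a replicate block the difference reversed in Birc5 (-0.031) and Ube2c (-0.014). The embryos of the genotypes are different animals that share only a number: their deviations correlated at 0.07, 0.63 and 0.45 for numbers 1, 2 and 3, and cultures of the same number at a median of -0.02. Leaving out arrays with outlying control probe ratios was not run, since no array passed the limit of 3.5 robust deviations. The cause of these changes was not tested. Signals near background limit the dim genes, whose changes the log2(signal + 16) scale understates.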
